A study of Homo sapiens with 15 samples.

Results

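The 47 genes described here encode the machinery that copies DNA and the enzymes that supply its building blocks. They were chosen by their symbols, with earlier results of these data known, so the counts below describe this list and are no independent test. All 47 were measured among the 17687 genes with 1 symbol on the array, each by a single probe set. A cell that prepares to divide assembles the origin recognition complex on its DNA and, with CDC6 and CDT1, loads the MCM helicase there, which is called licensing. CDC45 and the GINS complex then switch the helicase on, polymerases copy both strands behind it, and ribonucleotide reductase, thymidylate synthase and related enzymes make the deoxynucleotides. Transcription of many of these genes depends on E2F factors, and it is low in cells that have left the cell cycle, as mature adipocytes generally do.

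The cells were ASC52, an established human line of mesenchymal stem cells from adipose tissue that carries an added telomerase gene, so that all groups share 1 immortalised line. The DED group held cells that were differentiated for 14 days in adipogenesis medium (StemPRO), begun 3 days after seeding, and then given, for 7 days, the conditioned medium of MDA-MB-231 cells, which are an established breast cancer line. The MA group held cells differentiated in the same way and then kept for 7 days in the control medium, RPMI with 10% FBS. The labels give 10% serum for the DED group as well. The MSC group held undifferentiated cells, seeded in MesenPRO RS, whose harvest time the labels do not state. There were 5 arrays per group. The labels do not say whether they stand for separate cultures, and the p-values thus cover the spread among these arrays alone, part or all of which may be technical. MA against MSC covers the differentiation step together with any difference of medium and culture time, which cannot be told apart from it. DED against MA covers every difference between the conditioned and the control medium, and these cannot be told apart either.

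Values are log2 intensities, so that a difference of 1 is a doubling on the intensity scale, and every rise or fall not called a fold is a log2 difference. A gene is said to have fallen or risen where limma, fitted on all genes and all 15 arrays, gave a Benjamini-Hochberg adjusted p under 0.05. Correlations between arrays of 1 group over all genes were at least 0.982 in DED and 0.992 in MA and in MSC. Adipocyte markers checked the labels. Of 7 listed, 7 rose in MA against MSC and 6 fell in DED against MA. LEP went the other way in DED against MA, with means of 7.4 in DED and 6.73 in MA. By limma it passed only at an unadjusted p under 0.05. ADIPOQ, which encodes adiponectin, was at 11.24 to 13.89 in DED, 15.03 to 15.23 in MA and 3.5 to 4.49 in MSC. The 612 negative controls on the array gave 4.80 as their median, and 8.31 as the value that 95% of them stayed under. The group mean lay under 8.31 for 39 of the 47 genes in DED, 35 in MA and 22 in MSC. The size of a difference between such low values depends on background, so folds are given only where both group means were above 8.31. In bulk samples, fewer cycling cells and less RNA of a gene per cell cannot be told apart.

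The replication genes stood at 3 levels, with no array of one group inside the range of another. Their mean over the 47 genes was 6.51 to 6.65 in DED arrays, 7.34 to 7.45 in MA arrays and 8.18 to 8.31 in MSC arrays. In MA against MSC 37 of the 47 genes fell and 0 rose by limma, where 17.6% of all genes fell and 15.4% rose, and 0 rose at an unadjusted p under 0.05. In DED against MA 32 fell and 0 rose, where 13.0% of all genes fell and 12.9% rose, and again 0 rose at an unadjusted p under 0.05. In DED against MSC 43 fell and 0 rose (0 unadjusted), where 16.4% of all genes fell and 17.1% rose. The median log2 difference of the 47 genes was -0.76 in MA against MSC, -0.65 in DED against MA and -1.34 in DED against MSC, while that of all genes was 0, 0.02 and 0.03.

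In both steps, MA against MSC and DED against MA, 27 genes fell. Another 10 genes fell only past the test of the first step, 5 only past that of the second, and 5 passed neither, which does not show by itself that their steps differed. The lowest group mean was that of DED for 46 genes and that of MA for RPA2 alone. The arrays of the groups compared did not overlap for 30 of the 47 genes in MA against MSC, 27 in DED against MA and 41 in DED against MSC, all with the first-named group lower. Over all genes that share was 14.6%, 9.48% and 12.7%. A fall of at least 1 log2 unit that passed the test was found for 16, 15 and 35 genes in the same 3 comparisons, against 5.18%, 3.48% and 5.68% of all genes. Of the 12 genes whose mean over all arrays was at or above the negative control 95th percentile, 11 fell in MA against MSC, 8 in DED against MA and 12 in DED against MSC, where 29.1%, 22.4% and 26.7% of all genes at that level fell. Of the 35 genes under it 26, 24 and 31 fell, where 11.3%, 7.85% and 10.6% of all genes at that level fell. A gene can reach that mean over all arrays through its MSC values alone. Where both group means compared were above 8.31, 10 of 12 genes fell in MA against MSC. By the same filter 5 of 8 fell in DED against MA and 8 of 8 in DED against MSC. The share of all genes was not computed with this filter.

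**Figure D1:**
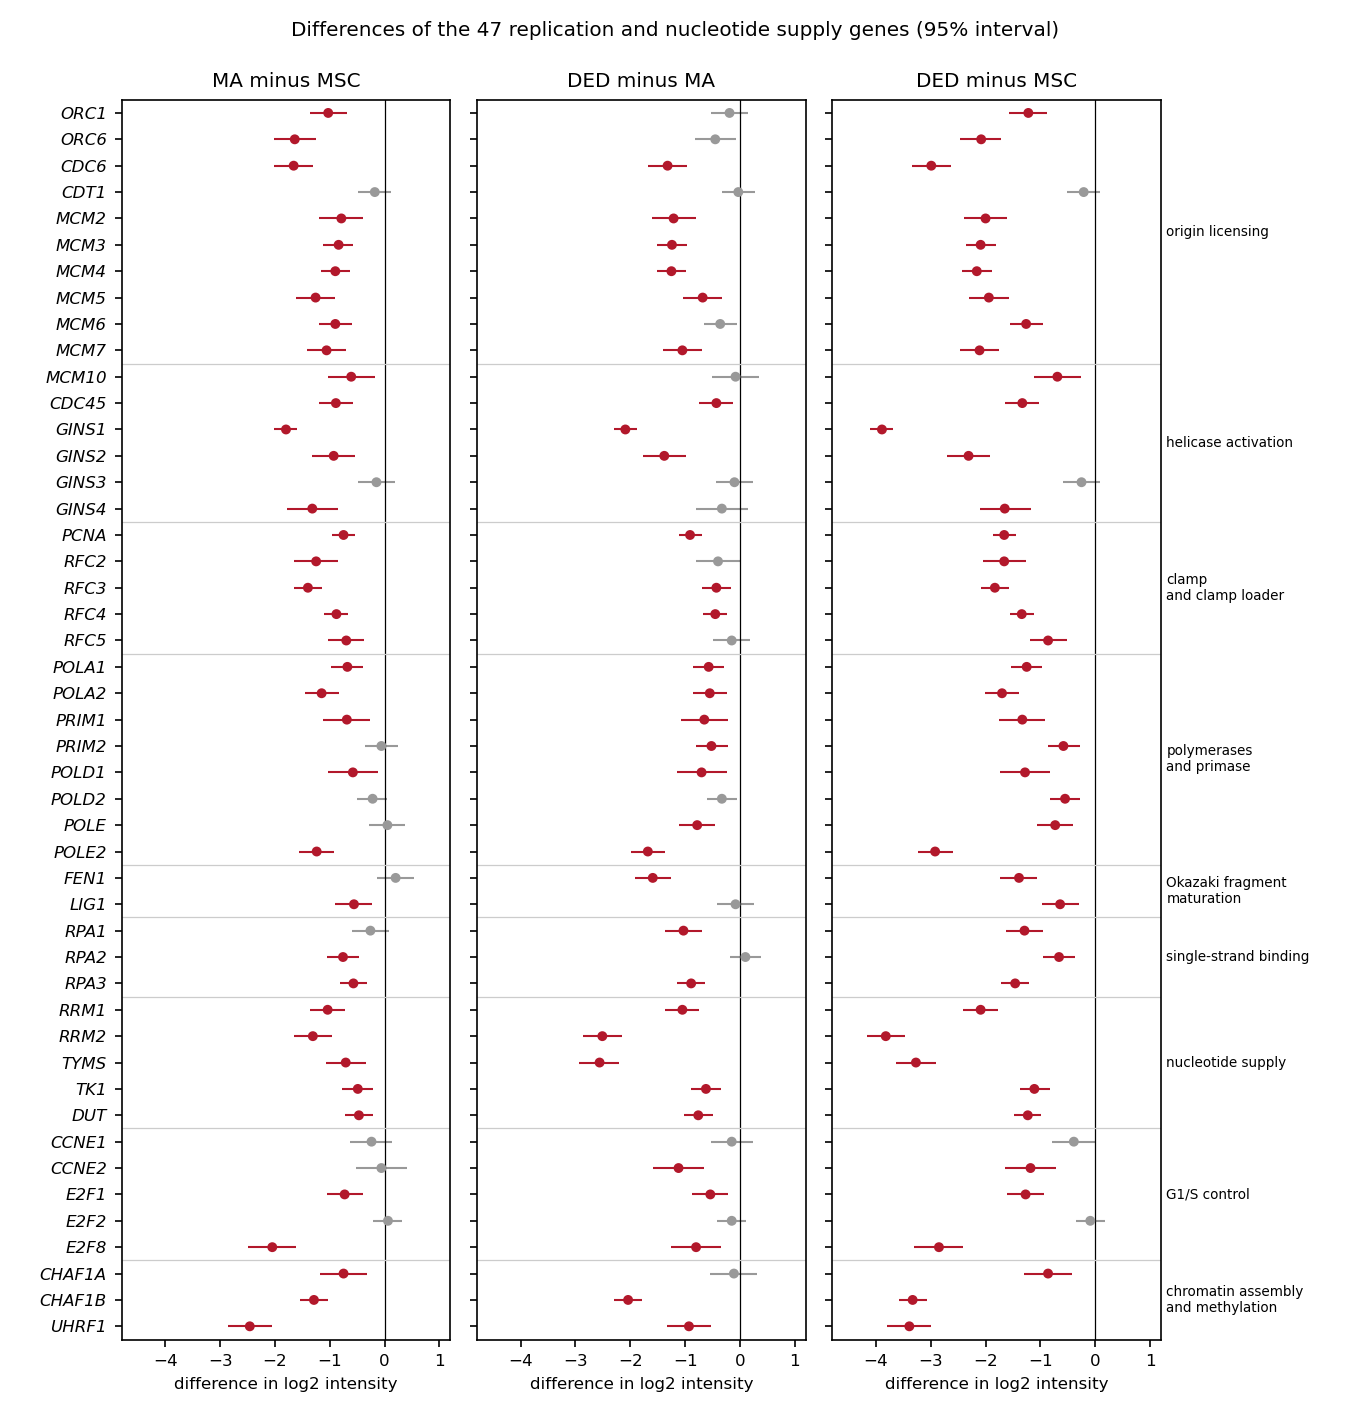
Difference in log2 intensity (horizontal axis) of each of the 47 genes (rows, grouped by role) in MA minus MSC, DED minus MA and DED minus MSC, with its 95% interval. Points are red where the gene fell at an adjusted p under 0.05 and grey where it did not pass the test; none rose, and 43 of the 47 points are red in DED minus MSC, against 37 in MA minus MSC and 32 in DED minus MA.

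**Figure D2:**
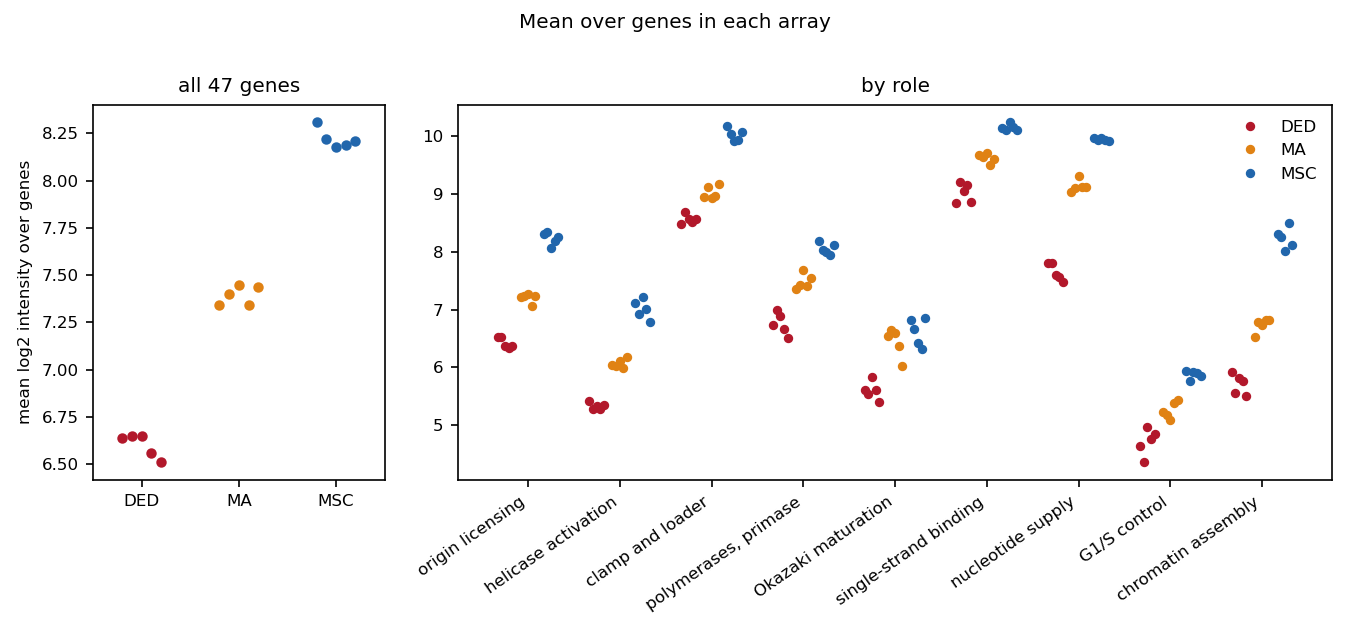
Mean log2 intensity over genes in each array (points), for all 47 genes on the left (DED, MA, MSC) and for the 9 roles on the right, with 5 arrays per group. Over all 47 genes the arrays lie at 6.51 to 6.65 in DED, 7.34 to 7.45 in MA and 8.18 to 8.31 in MSC, and only for Okazaki maturation do the MA and MSC arrays overlap.

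Promoter sequences are shown because the genes fell together and many are known E2F targets. RefSeq windows of 300 bases (GRCh38.p14, 250 bases before and 50 after the gene start) were matched by symbol for 40 of the 47 genes. MCM4, MCM5, GINS4, RPA2, RPA3, CCNE2 and E2F8 had no entry. The E2F motif TTTNNCGC, with each N a C or a G, was searched on both strands and counted also where matches overlap. It was present in 20 of the 40 windows (50%), against 4.44% of 14250 windows of measured genes. Of 46 windows of other genes of the pathway, whose results are given further below, 26.1% held it. The median GC content was 66.7% in the 40 windows and 63.0% in the 14250. With the first T left out (TTNNCGC) the shares were 72.5% and 17.3%, and 37% for the other pathway genes. The CCAAT box, which the factor NF-Y binds, was present in 55.0% and 36.4%. For the other pathway genes its share was 52.2%, near that of the 40 windows. The cell cycle homology element of many mitotic genes (TTTGAA or TTCGAA) was present in 5% and 13.4%, and in 10.9% for the other pathway genes. Every match to TTTNNCGC holds one to the shorter form, and in MCM7 a CCAAT match overlaps an E2F match. In CHAF1A, ORC1, PRIM1 and POLE a CCAAT match overlaps a match to the shorter form. The following sequences run 5′ to 3′ along the gene, with the matches to TTTNNCGC or its reverse complement in capitals. They were picked by the fitted log2 difference among genes with the motif, UHRF1 and GINS1 in MA against MSC and TYMS and GINS1 in DED against MA. RFC3 and GINS2 follow as the next whose match lies wholly before the start, and PCNA and MCM6 were added after the matches were seen, MCM6 because it holds 2 copies of an overlapping pair. All end at the base before the gene start, except that of GINS1, whose 30 bases span it because the match lies after the start.
UHRF1 (chr19:4909401-4909500, plus strand): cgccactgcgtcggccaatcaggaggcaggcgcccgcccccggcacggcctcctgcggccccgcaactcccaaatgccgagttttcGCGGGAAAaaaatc
GINS1 (chr20:25407667-25407696, plus strand): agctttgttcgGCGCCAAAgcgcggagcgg
TYMS (chr18:657553-657652, plus strand): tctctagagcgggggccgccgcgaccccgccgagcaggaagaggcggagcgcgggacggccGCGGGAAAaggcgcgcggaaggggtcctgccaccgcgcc
RFC3 (chr13:33818049-33818148, plus strand): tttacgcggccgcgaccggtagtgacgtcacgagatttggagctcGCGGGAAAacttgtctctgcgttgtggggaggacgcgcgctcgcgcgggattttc
GINS2 (chr16:85688955-85689054, minus strand): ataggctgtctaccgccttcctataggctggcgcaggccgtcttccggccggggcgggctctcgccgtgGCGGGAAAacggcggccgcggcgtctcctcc
PCNA (chr20:5126623-5126722, minus strand): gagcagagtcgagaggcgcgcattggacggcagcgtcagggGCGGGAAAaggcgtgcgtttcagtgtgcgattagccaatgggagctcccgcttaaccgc
MCM6 (chr2:135876444-135876605, minus strand): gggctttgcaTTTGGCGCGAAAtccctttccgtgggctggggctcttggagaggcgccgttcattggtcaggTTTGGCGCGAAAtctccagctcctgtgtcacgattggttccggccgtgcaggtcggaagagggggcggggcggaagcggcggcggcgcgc

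UHRF1, TYMS, RFC3, GINS2 and PCNA share the form GCGGGAAA, the reverse complement of TTTCCCGC, within 60 bases of the start. Of the 27 matches in the 20 genes, 19 began no further than 60 bases before the start or lay after it, and 5 genes held more than 1 match. The 20 genes with the motif had a median log2 difference of -0.82 in MA against MSC and -0.84 in DED against MA. The 20 windows without it belonged to genes with medians of -0.70 and -0.48. Of the 20 genes with the motif 16 fell in MA against MSC, 15 in DED against MA and 17 in DED against MSC. Of the 20 without it 15, 12 and 19 fell. RRM2, which fell in both steps, held no match in this window, and CDT1, E2F2 and GINS3, which passed no test, each held one. A match describes letters in a window and not a bound site.

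**Figure D3:**
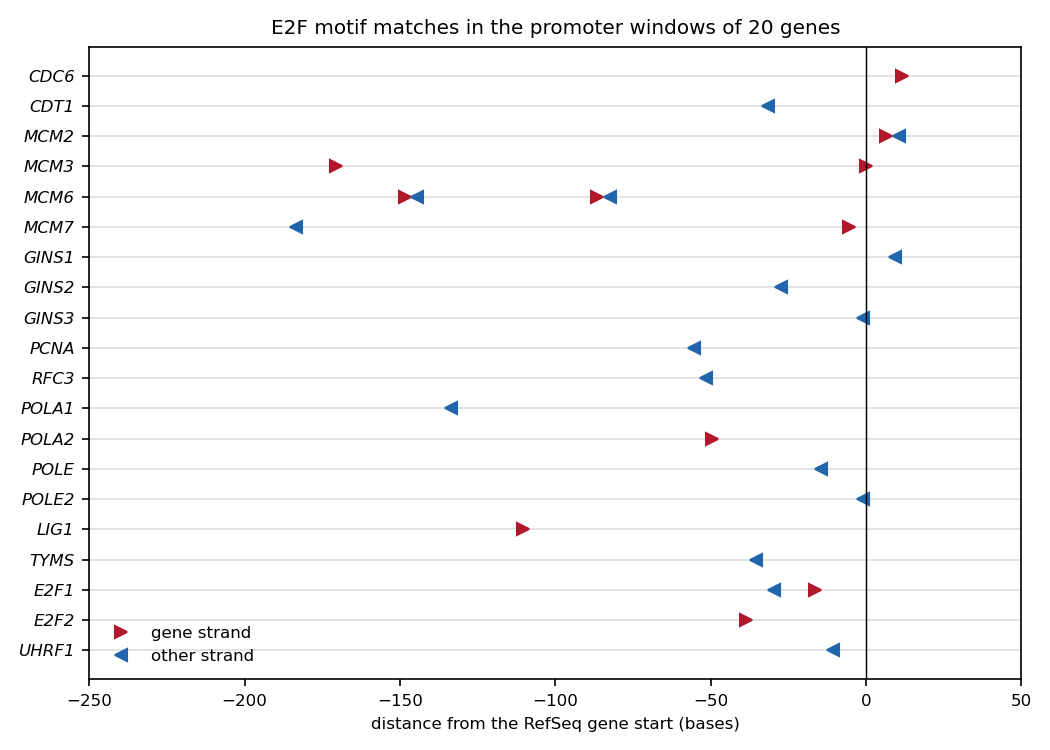
Position of each E2F motif match (triangles) in the promoter windows of the 20 genes that hold one, as distance in bases from the RefSeq gene start at 0, from 250 bases before it to 50 after it. Triangles pointing right are on the gene's strand and those pointing left on the other strand. Of the 27 matches, 19 lie within 60 bases before the start or after it. MCM6 shows 2 overlapping pairs, and the matches of MCM2 also overlap.

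The licensing genes load the helicase. CDC6, the loader that joins the origin recognition complex, was at 5.81, 6.26, 6.88, 6.40 and 6.51 in DED arrays 1 to 5, at 7.58, 7.78, 7.62, 7.72 and 7.77 in MA and at 9.63, 8.99, 9.24, 9.18 and 9.75 in MSC. The 3 groups were separate in every array. CDC6 fell by 1.66 in MA against MSC (SE 0.17, limma adjusted p = 1.2e-07) and by 1.32 in DED against MA (SE 0.17, adjusted p = 5e-06). ORC6, the smallest subunit of the origin recognition complex, was at 6.28, 5.44, 5.37, 5.63 and 5.36 in DED, at 5.78, 6.20, 6.0, 5.88 and 6.46 in MA and at 8.02, 7.62, 7.77, 7.80 and 7.29 in MSC. All DED and MA arrays lay below all MSC arrays, and DED overlapped MA. ORC6 fell by 1.64 in MA against MSC (adjusted p = 3e-07) and was at -0.45 in DED against MA (adjusted p = 0.072; 0.0049 without DED array 1 and 0.029 with array weights). ORC1, the ATPase subunit that is made and degraded with the cycle, fell by 1.03 in MA against MSC (adjusted p = 3.9e-05) and was at -0.19 in DED against MA (adjusted p = 0.45). CDT1, which brings the helicase to the origin, passed no test, with means of 5.21 ± 0.12 in DED, 5.24 ± 0.36 in MA and 5.42 ± 0.12 in MSC (SD, n = 5 each). These lie between the median and the 95th percentile of the negative controls, where a change could be missed.

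All 6 subunits of the MCM helicase, MCM2 to MCM7, fell in MA against MSC, and all but MCM6 fell again in DED against MA. MCM3 was at 6.62, 6.69, 6.24, 6.90 and 6.56 in DED, at 7.59, 7.95, 8.19, 7.72 and 7.77 in MA and at 8.79, 8.80, 8.58, 8.53 and 8.74 in MSC. MCM4 was at 6.56, 6.35, 6.16, 6.24 and 6.11 in DED, at 7.58, 7.52, 7.59, 7.53 and 7.47 in MA and at 8.72, 8.72, 8.06, 8.34 and 8.37 in MSC. For both subunits the 3 groups did not overlap. In MA against MSC MCM2 fell by 0.79, MCM3 by 0.84, MCM4 by 0.90, MCM5 by 1.26, MCM6 by 0.90 and MCM7 by 1.06 (adjusted p from 7.1e-06 to 0.0027). MCM2, in DED against MA, fell by 1.21, MCM3 by 1.24, MCM4 by 1.25, MCM5 by 0.68 and MCM7 by 1.05 (adjusted p from 2.4e-07 to 0.0055). MCM6 was at 8.54, 8.30, 8.59, 8.38 and 8.62 in DED, at 8.5, 9.03, 9.32, 8.59 and 8.80 in MA and at 9.74, 9.95, 9.46, 9.74 and 9.83 in MSC. DED overlapped MA, and both lay below MSC. The difference of MCM6 in DED against MA was -0.36 (95% interval -0.66 to -0.06, adjusted p = 0.072), and it passed without MA array 1 (0.028), without MA array 4 (0.043) and with array weights (0.035). In DED against MSC MCM6 was lower by 2.39-fold (adjusted p = 5.3e-07).

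GINS1, a subunit of the complex that holds the active helicase together with CDC45, was at 5.82, 6.07, 5.92, 5.67 and 5.98 in DED, at 7.93, 7.92, 8.02, 8.04 and 8.0 in MA and at 9.94, 9.70, 9.74, 9.74 and 9.78 in MSC, with an SD of at most 0.15 in each group. GINS1 fell by 1.80 in MA against MSC (SE 0.10, adjusted p = 1.4e-11) and fell by 2.09 in DED against MA (SE 0.10, adjusted p = 7.7e-12). GINS2 was at 5.80, 6.55, 6.96, 6.60 and 6.75 in DED, at 8.0, 7.60, 8.11, 7.70 and 8.14 in MA and at 9.07, 9.07, 9.0, 8.49 and 8.56 in MSC. It fell by 0.93 (adjusted p = 0.00051) and then by 1.38 (adjusted p = 1e-05). GINS4 was at 6.20, 5.08, 5.28, 5.42 and 5.37 in DED, at 6.03, 5.99, 5.24, 5.56 and 6.18 in MA and at 7.10, 6.97, 7.84, 6.81 and 6.86 in MSC, so that DED and MA overlapped. It fell by 1.32 in MA against MSC (adjusted p = 8.2e-05) and was at -0.33 in DED against MA (adjusted p = 0.32). GINS3 had means of 4.76 ± 0.17 in DED, 4.86 ± 0.12 in MA and 5.01 ± 0.41 in MSC and passed no test.

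CDC45, which completes the active helicase, fell by 0.89 in MA against MSC (adjusted p = 6.3e-05). In DED against MA it fell by 0.43 (adjusted p = 0.036), with 4.73 to 4.88 in DED and 5.03 to 5.47 in MA. This second call was lost without any 1 of 6 arrays, namely MA arrays 2, 3 and 5 and DED arrays 2, 3 and 4 (adjusted p 0.054 to 0.096), and without DED arrays 1 and 3 together (0.076). MCM10, which helps to fire licensed origins, fell by 0.61 in MA against MSC (adjusted p = 0.028) with overlapping arrays, 4.26 to 4.91 in MA and 4.73 to 6.15 in MSC. That call was lost without any 1 of MSC arrays 1 and 4 and MA arrays 1, 2 and 4 (0.051 to 0.077) and in a fit of only MA and MSC (0.053). Without MSC array 4 the difference was -0.37, and that in DED against MSC was -0.45, against -0.69 with it. In DED against MA MCM10 was at -0.08 (adjusted p = 0.83).

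PCNA, the ring that holds polymerases on DNA, was at 10.95, 10.92, 10.81, 10.81 and 10.98 in DED, at 11.79, 11.87, 11.83, 11.59 and 11.95 in MA and at 12.71, 12.37, 12.55, 12.64 and 12.51 in MSC. No array of one group reached another. PCNA was lower by 1.68-fold in MA against MSC (log2 difference -0.75, SE 0.10, adjusted p = 5.8e-06) and by 1.88-fold in DED against MA (log2 difference -0.91, SE 0.10, adjusted p = 8e-07). The replication factor C subunits open that ring and load it. RFC3 was at 7.49, 7.80, 7.23, 7.77 and 7.55 in DED, at 8.0, 7.92, 8.01, 7.95 and 8.11 in MA and at 9.53, 9.44, 9.20, 9.19 and 9.64 in MSC. It fell by 1.40 in MA against MSC (adjusted p = 1.4e-08) and by 0.43 in DED against MA (adjusted p = 0.013; 0.11 without DED arrays 1 and 3). RFC4 fell by 0.88 and then by 0.45, which are 1.85-fold and 1.37-fold (adjusted p = 9.1e-07 and 0.0025). RFC2 and RFC5 fell in MA against MSC, by 1.25 and 0.70 (adjusted p = 2.4e-05 and 0.0015). In DED against MA they were at -0.40 and -0.15 (adjusted p = 0.14 and 0.55), and RFC2 passed without DED array 2 (0.022).

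**Figure D4:**
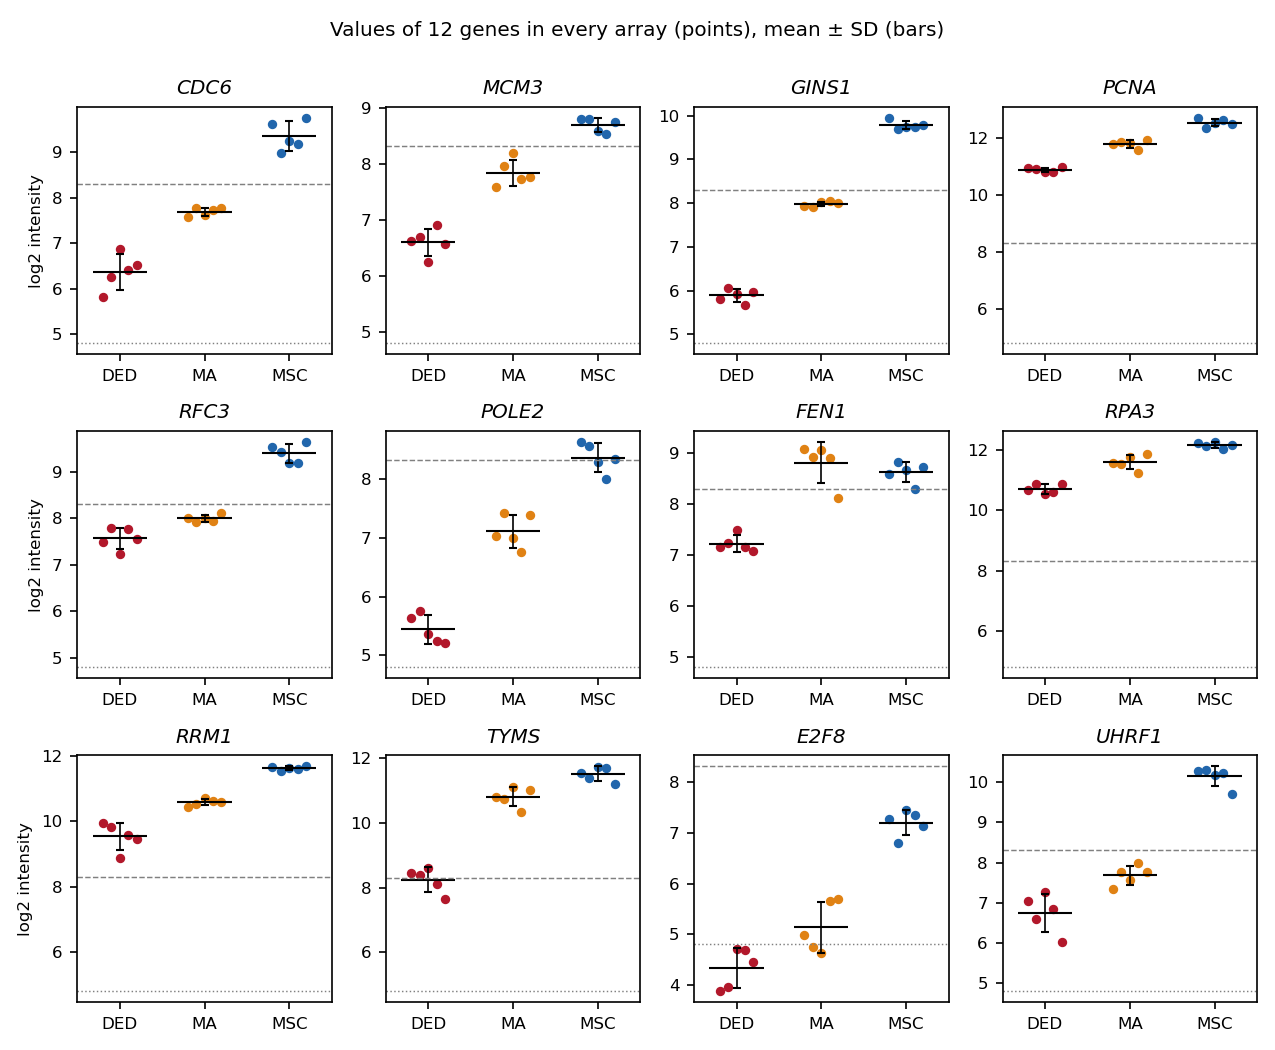
Log2 intensity of 12 genes in every array, with DED, MA and MSC from left to right in each panel, points for the 5 arrays and bars for the mean ± SD. The dashed and dotted lines mark the negative controls (95th percentile 8.31, median 4.80); DED arrays lie below MA arrays in all panels except E2F8, and FEN1 is the 1 panel whose mean is higher in MA than in MSC.

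The polymerase genes fell mostly in both steps. POLE2, the second subunit of the leading strand polymerase epsilon, was at 5.63, 5.75, 5.36, 5.24 and 5.21 in DED, at 7.03, 7.41, 6.99, 6.76 and 7.38 in MA and at 8.62, 8.55, 8.28, 7.99 and 8.34 in MSC. The groups did not overlap, and it fell by 1.24 in MA against MSC (adjusted p = 1.6e-06) and by 1.68 in DED against MA (adjusted p = 5.1e-08). POLE, the catalytic subunit of the same enzyme, was at 5.46, 5.51, 5.59, 5.38 and 5.58 in DED, at 6.0, 5.65, 6.54, 6.72 and 6.49 in MA and at 6.35, 6.17, 6.09, 6.33 and 6.21 in MSC. Its MA and MSC arrays overlapped (log2 difference 0.05, 95% interval -0.28 to 0.38, adjusted p = 0.86), and all DED arrays were lower than both (-0.78 against MA, adjusted p = 0.00084). POLA2, a subunit of the primer-making polymerase alpha, was at 6.45, 6.73, 6.57, 6.71 and 5.93 in DED, at 7.14, 6.99, 7.06, 6.94 and 6.99 in MA and at 8.39, 7.74, 8.22, 8.15 and 8.38 in MSC. It fell by 1.15 and then by 0.55 (adjusted p = 3.1e-06 and 0.0091), and POLA1, its catalytic subunit, by 0.68 and 0.57 (adjusted p = 0.00054 and 0.0035).

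PRIM1, the catalytic primase subunit, fell by 0.69 in MA against MSC (adjusted p = 0.013) and by 0.65 in DED against MA (adjusted p = 0.024). The second call was lost without MA array 3 (0.078), DED array 4 (0.080) or DED array 5 (0.066). PRIM2, the large primase subunit, had means of 7.74 ± 0.21 in DED, 8.26 ± 0.32 in MA and 8.32 ± 0.10 in MSC. It was at -0.06 in MA against MSC (adjusted p = 0.8) and fell by 0.52 in DED against MA (adjusted p = 0.0094). POLD1, the catalytic subunit of the lagging strand polymerase delta, had means of 5.68 ± 0.25 in DED, 6.38 ± 0.52 in MA and 6.96 ± 0.40 in MSC. Its fall in MA against MSC (-0.58, adjusted p = 0.046) was lost without any 1 of MSC arrays 1, 2 and 5, MA arrays 1 and 4 and DED arrays 1, 3, 4 and 5 (0.051 to 0.15). It was also lost in a fit of only MA and MSC (0.071) and without DED arrays 1 and 3 together (0.060). Its fall in DED against MA (-0.70, adjusted p = 0.023) was lost without any 1 of MA arrays 2, 3 and 5 and DED arrays 4 and 5 (0.054 to 0.068), and without DED arrays 1 and 3 together (0.067). Against MSC, POLD1 fell in DED by 1.28 (adjusted p = 8.9e-05). POLD2, its accessory subunit, was at -0.22 in MA against MSC (adjusted p = 0.22) although all MA arrays (10.72 to 10.89) lay below all MSC arrays (10.90 to 11.09). In DED against MA it was at -0.33 (adjusted p = 0.072; 0.010 without DED array 3, 0.040 without DED arrays 1 and 3, and 0.041 with quantile normalization), and in DED against MSC it was lower by 1.47-fold (adjusted p = 0.0021).

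FEN1, the nuclease that trims the flaps of Okazaki fragments, followed another course. It was at 7.17, 7.24, 7.50, 7.16 and 7.09 in DED, at 9.08, 8.93, 9.06, 8.92 and 8.12 in MA and at 8.60, 8.83, 8.67, 8.30 and 8.73 in MSC. MA and MSC arrays overlapped (difference 0.20, adjusted p = 0.4), and MA array 5 was the lowest MA array. Without that array FEN1 rose by 0.37 in MA against MSC (adjusted p = 0.026). In DED against MA it fell by 1.59 (SE 0.16, adjusted p = 2e-07), with all DED arrays below all others. LIG1, the ligase that joins the fragments, was under the negative control median in every group, with means of 3.96 ± 0.18 in DED, 4.04 ± 0.22 in MA and 4.60 ± 0.39 in MSC. It fell by 0.56 in MA against MSC (adjusted p = 0.0096) and was at -0.08 in DED against MA (adjusted p = 0.8).

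Replication protein A, made of RPA1, RPA2 and RPA3, coats single-stranded DNA. RPA3 was at 10.66, 10.88, 10.52, 10.59 and 10.86 in DED, at 11.57, 11.54, 11.76, 11.22 and 11.85 in MA and at 12.23, 12.11, 12.25, 12.04 and 12.16 in MSC. The groups were separate, and RPA3 was lower by 1.48-fold in MA against MSC (adjusted p = 0.00084) and by 1.85-fold in DED against MA (adjusted p = 1.1e-05). RPA1, the largest subunit, was at 7.05, 7.31, 7.33, 7.29 and 6.52 in DED, at 8.18, 8.04, 8.23, 8.45 and 7.73 in MA and at 8.13, 8.52, 8.36, 8.56 and 8.36 in MSC. It was at -0.26 in MA against MSC (adjusted p = 0.24) and fell by 1.03 in DED against MA (adjusted p = 4.7e-05). RPA2, the middle subunit, was at 8.85, 9.44, 9.29, 9.56 and 9.23 in DED, 9.26, 9.34, 9.18, 8.82 and 9.26 in MA and 10.07, 9.71, 10.15, 9.92 and 9.80 in MSC. It was lower by 1.69-fold in MA against MSC (adjusted p = 0.00019), with no overlap, and was at 0.10 in DED against MA (95% interval -0.19 to 0.39, adjusted p = 0.66).

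All 5 genes of nucleotide supply fell in each comparison. RRM1, the large subunit of ribonucleotide reductase, was at 9.95, 9.83, 8.88, 9.57 and 9.45 in DED, at 10.45, 10.53, 10.71, 10.63 and 10.61 in MA and at 11.66, 11.54, 11.65, 11.61 and 11.69 in MSC. The groups did not overlap, DED array 3 being the lowest of all. RRM1 was lower by 2.06-fold in MA against MSC and by 2.07-fold in DED against MA (adjusted p = 1.2e-05 and 1.9e-05). RRM2, the small subunit made in S phase, was at 3.99, 4.66, 4.88, 4.17 and 4.14 in DED, at 6.73, 6.63, 7.07, 7.06 and 6.91 in MA and at 8.58, 7.89, 8.22, 8.07 and 8.18 in MSC. In DED its mean lay under the negative control median. RRM2 fell by 1.31 in MA against MSC (SE 0.17, adjusted p = 2.5e-06) and by 2.51 in DED against MA (SE 0.17, adjusted p = 5.4e-10).

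TYMS, thymidylate synthase, was at 8.45, 8.40, 8.62, 8.10 and 7.66 in DED, at 10.81, 10.75, 11.12, 10.34 and 11.02 in MA and at 11.55, 11.38, 11.74, 11.71 and 11.20 in MSC. The groups did not overlap, and every DED array was more than 1 log2 unit below every array of the other groups. TYMS was lower by 1.63-fold in MA against MSC (adjusted p = 0.0032) and fell by 2.56 in DED against MA (SE 0.18, adjusted p = 8.6e-10). DUT, which removes dUTP, was lower by 1.39-fold and then by 1.69-fold, at 10.49 ± 0.25 in DED, 11.25 ± 0.12 in MA and 11.72 ± 0.15 in MSC (adjusted p = 0.0046 and 7.4e-05). TK1, the S phase thymidine kinase that salvages thymidine, fell by 0.49 and 0.62 (adjusted p = 0.0061 and 0.0013), with means of 5.57 ± 0.14 in DED, 6.19 ± 0.22 in MA and 6.68 ± 0.24 in MSC.

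Of 5 genes that control entry into S phase, 2 fell in MA against MSC and 3 in DED against MA. E2F8, an E2F factor that represses transcription, was at 3.88, 3.96, 4.72, 4.69 and 4.46 in DED, at 4.98, 4.75, 4.64, 5.65 and 5.69 in MA and at 7.27, 6.80, 7.44, 7.34 and 7.13 in MSC. It fell by 2.05 in MA against MSC (adjusted p = 1.7e-07), and in DED against MA by 0.80 with overlapping arrays (adjusted p = 0.0081). E2F1, an activating E2F factor, was at 4.06, 3.73, 3.90, 3.64 and 3.98 in DED, at 4.22, 4.50, 4.41, 4.14 and 4.75 in MA and at 5.36, 5.24, 5.28, 4.50 and 5.30 in MSC, and its mean was above the negative control median in MSC only. It fell by 0.73 and 0.54 (adjusted p = 0.00099 and 0.014). E2F2, the other activator listed, passed no test, with means of 4.86 ± 0.24 in DED, 5.01 ± 0.07 in MA and 4.95 ± 0.20 in MSC. CCNE2, a cyclin that drives CDK2 into S phase, was at 5.11, 4.22, 5.30, 4.35 and 4.38 in DED, at 6.09, 5.65, 5.44, 6.04 and 5.75 in MA and at 5.98, 5.71, 5.44, 6.54 and 5.61 in MSC. It was at -0.06 in MA against MSC (adjusted p = 0.87) and fell by 1.12 in DED against MA (adjusted p = 0.00063). CCNE1, its paralog, had means of 5.82 ± 0.51 in DED, 5.97 ± 0.13 in MA and 6.21 ± 0.22 in MSC and passed no test.

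UHRF1, which reads half-methylated DNA behind the fork and brings the maintenance methyltransferase to it, was at 7.04, 6.59, 7.28, 6.84 and 6.02 in DED, at 7.34, 7.76, 7.56, 7.99 and 7.76 in MA and at 10.29, 10.30, 10.19, 10.24 and 9.71 in MSC. UHRF1 fell by 2.46 in MA against MSC (SE 0.19, adjusted p = 2.2e-09) and by 0.93 in DED against MA (SE 0.19, adjusted p = 0.00094). CHAF1B, a subunit of the chromatin assembly factor that places histones on new DNA, was at 5.87, 6.10, 6.31, 6.21 and 6.33 in DED, at 8.18, 8.07, 8.45, 8.10 and 8.21 in MA and at 9.64, 9.71, 9.24, 9.40 and 9.47 in MSC. The groups were separate, and it fell by 1.29 and then by 2.04 (adjusted p = 3.8e-08 and 1.3e-10). CHAF1A, the large subunit, had means of 4.21 ± 0.38 in DED, 4.32 ± 0.20 in MA and 5.07 ± 0.49 in MSC, all but the last under the negative control median. It fell by 0.75 in MA against MSC (adjusted p = 0.0071) and was at -0.11 in DED against MA (adjusted p = 0.77).

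Whether a gene changed differently in the 2 steps was tested as the difference in DED against MA minus that in MA against MSC, in the same limma fit. The MA arrays enter both steps. This contrast was negative for 7 of the 47 genes and positive for 6, where it was negative for 12.9% and positive for 14.4% of all genes, so the shares are near the background. Without MA array 4 it was negative for 4 genes. A negative value means a larger fall in DED against MA than in MA against MSC. It was -1.85 for TYMS (adjusted p = 8.5e-05), -1.79 for FEN1 (4.7e-05), -1.20 for RRM2 (0.0032), -0.75 for CHAF1B (0.01), -0.83 for POLE (0.028), -0.77 for RPA1 (0.043) and -1.06 for CCNE2 (0.045). It was positive, with the larger fall in the first step, for UHRF1 (1.54, adjusted p = 0.0013), E2F8 (1.25, 0.015), ORC6 (1.19, 0.006), RFC3 (0.97, 0.0015), RPA2 (0.86, 0.01) and ORC1 (0.84, 0.032). The means of ORC1 in MA and DED and of E2F8 in DED were under the negative control median. There a further fall could be missed or look too small, so their positive values do not by themselves show a smaller second fall. A fall from under that median could still pass, as that of E2F1 did in DED against MA. The DED means of RRM2 and CCNE2 were under that median too. TYMS, FEN1, RRM2, CHAF1B, UHRF1, ORC6, RFC3 and RPA2 kept their call without any 1 array. That of CCNE2 was lost without any 1 of 11 arrays (0.052 to 0.13), namely every array but MSC array 4, MA array 3 and DED arrays 1 and 3, and with quantile normalization (0.056). That of RPA1 was lost without any 1 of 9 arrays, MSC 1, 3 and 5, MA 1 to 4 and DED 1 and 5 (0.055 to 0.14). That of ORC1 was lost without MSC arrays 1 or 2 or MA arrays 2, 3 or 4 (0.053 to 0.1) and without DED arrays 1 and 3 together (0.054), that of POLE without MA arrays 3, 4 or 5 (0.087 to 0.11), and that of E2F8 without MA arrays 2 or 3 (0.059 and 0.065). A positive call was gained for RFC2 without MSC array 4, MA array 5 or DED array 1 (0.012 to 0.045), with array weights (0.028), with an intensity trend and robust fit (0.049) and without DED arrays 1 and 3 together (0.0098), and for GINS4 without MA array 5 or DED array 2 (0.044 and 0.045). It was also gained for POLA2 without MSC array 2 or DED array 5 (0.032 and 0.015), CDC45 without MSC array 4 (0.048), RFC5 without MA array 2 (0.041) and MCM6 without MA array 3 (0.02).

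Of 57 other genes of the pathway, listed by their roles, 55 were measured. In MA against MSC 31 fell and 4 rose, in DED against MA 19 fell and 3 rose, and in DED against MSC 33 fell and 7 rose. Of all genes 17.6%, 13.0% and 16.4% fell and 15.4%, 12.9% and 17.1% rose in these comparisons, so the rises were no more frequent than over all genes. Their median log2 differences were -0.52, -0.12 and -0.62, against -0.76, -0.65 and -1.34 for the 47 genes. Of 31 measured other replication factors, 19 fell in MA against MSC and 9 in DED against MA, and 0 rose in either by limma (0 and 3 at an unadjusted p under 0.05). CDC7, the kinase that fires licensed origins, was at 4.54 ± 0.31 in DED, 5.38 ± 0.32 in MA and 7.53 ± 0.27 in MSC, and fell by 2.15 and then 0.84 (adjusted p = 3.6e-09 and 0.00097). CLSPN, claspin, which signals stalled forks, fell by 2.04 in DED against MA (adjusted p = 9.7e-07), and RNASEH2A, which removes RNA from DNA, by 1.47 (adjusted p = 9.4e-08). CCNA2, the S phase and mitotic cyclin A, fell by 2.19 in MA against MSC and by 2.63 in DED against MA (adjusted p = 4.4e-08 and 7.2e-09). E2F7, a repressor like E2F8, fell by 3.06 in MA against MSC (adjusted p = 3.7e-10) and HELLS, a chromatin remodeller, fell by 2.09 (adjusted p = 2.9e-09). E2F5, a repressive E2F factor, rose by 2.24 in DED against MA (adjusted p = 9.1e-06), with 7.69 to 10.14 in DED and 6.17 to 7.10 in MA, and fell by 1.47 in MA against MSC (adjusted p = 6e-04). RB1, the pocket protein that holds E2F factors back, fell by 0.60 in MA against MSC (adjusted p = 0.00078), rose by 0.49 in DED against MA (adjusted p = 0.0057) and was at -0.11 in DED against MSC (adjusted p = 0.58). RBL2, another pocket protein, rose by 0.76 in MA against MSC (adjusted p = 8.5e-05).

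The small reductase subunit has a second form, RRM2B, which is made outside S phase and is known as a p53 target. RRM2B was at 11.22, 11.33, 11.94, 11.40 and 11.08 in DED, at 10.76, 10.43, 10.54, 10.90 and 10.43 in MA and at 9.83, 9.99, 9.96, 9.88 and 9.84 in MSC. The groups did not overlap and ran in the order opposite to that of RRM2. RRM2B was higher by 1.64-fold in MA against MSC (adjusted p = 0.00045) and by 1.72-fold in DED against MA (adjusted p = 0.00027). SAMHD1, which breaks down deoxynucleotides, was at 13.96, 13.72, 12.59, 13.55 and 13.35 in DED, at 13.90, 14.02, 14.01, 14.13 and 13.93 in MA and at 9.0, 9.35, 9.17, 9.10 and 9.16 in MSC. It rose by 4.84 in MA against MSC (SE 0.18, adjusted p = 2.8e-14) and fell by 0.56 in DED against MA with overlapping arrays (adjusted p = 0.023). CMPK1, a nucleotide kinase, rose by 0.71 in MA against MSC (adjusted p = 0.00011), and TK2, the mitochondrial thymidine kinase, by 0.49 in DED against MSC (adjusted p = 0.031). CDKN1A, which encodes the CDK inhibitor p21, was at 11.05, 11.07, 12.25, 11.17 and 10.80 in DED, at 10.49, 10.57, 10.39, 10.31 and 10.40 in MA and at 9.62, 8.95, 9.37, 9.31 and 9.16 in MSC. It was higher by 2.22-fold in MA against MSC and by 1.79-fold in DED against MA (adjusted p = 0.00011 and 0.0033), while CDKN1C, a related inhibitor, passed neither test (6.89 ± 0.25 in DED, 7.26 ± 0.22 in MA and 6.99 ± 0.19 in MSC). MKI67, a marker of cycling cells, was at 5.82 to 7.29 in DED, 8.98 to 9.77 in MA and 11.49 to 11.75 in MSC, and TOP2A, the topoisomerase of dividing cells, at 5.90 to 7.77 in DED, 9.36 to 9.92 in MA and 12.26 to 12.40 in MSC.

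**Figure D5:**
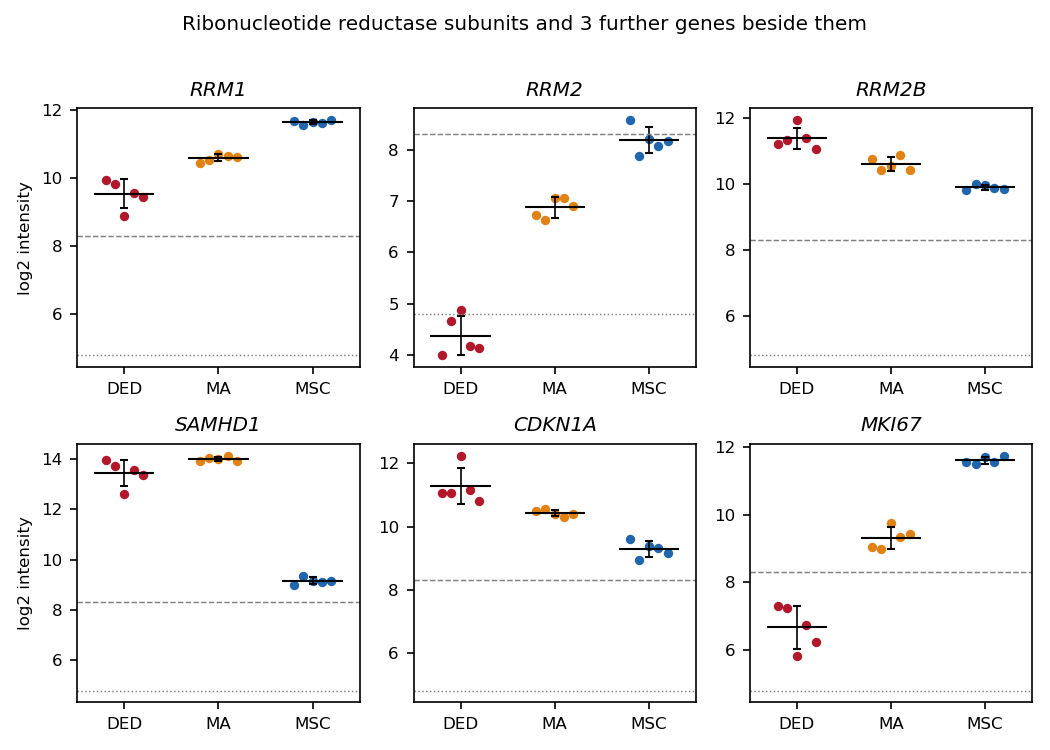
Log2 intensity in every array of the reductase subunits RRM1, RRM2 and RRM2B and of SAMHD1, CDKN1A and MKI67, with DED, MA and MSC from left to right, points for the 5 arrays and bars for the mean ± SD. The dashed and dotted lines are the 95th percentile (8.31) and the median (4.80) of the negative controls; RRM1, RRM2 and MKI67 are lowest in DED, where RRM2B and CDKN1A are highest.

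The mean over the 47 genes differed little between arrays of 1 group. Single genes differed more, such as RFC2 (7.57 to 8.86) and UHRF1 (6.02 to 7.28) in DED. DED arrays also differed in their adipocyte markers. The mean of 7 adipocyte markers was 11.19 in DED array 1 and 9.97 to 10.26 in the other DED arrays, against 12.08 to 12.25 in MA. The mean over the 47 genes was 6.64 in DED array 1 and 6.51 to 6.65 in the other DED arrays. Without DED arrays 1 and 3 the counts of genes that fell were 36 in MA against MSC, 31 in DED against MA and 43 in DED against MSC. Of 9 markers of breast carcinoma epithelium 7 were measured, and 0 rose and 0 fell in any comparison by limma (0 at an unadjusted p under 0.05). Their mean was 5.97 to 6.12 in DED, 5.87 to 5.97 in MA and 5.87 to 6.21 in MSC, with EPCAM at 4.05 to 4.60 in DED, 4.12 to 4.36 in MA and 3.93 to 4.86 in MSC, near or under the negative control median, and KRT8 at 8.83 to 9.61, 8.59 to 9.26 and 8.88 to 9.03. The means of KRT18 and CDH1 were also under that median in every group. The tumour line itself was not measured, so the level of these markers in its cells is not known here. Of 5 stem cell markers 4 fell in MA against MSC and 5 in DED against MSC. PI16 and DPP4 did not pass in DED against MA. PI16 was at 5.08 ± 0.17 in DED, 5.03 ± 0.16 in MA and 9.05 ± 0.5 in MSC. DPP4 was at 6.7 ± 0.81 in DED, 6.92 ± 0.33 in MA and 9.35 ± 0.3 in MSC. THY1 and ENG rose in DED against MA, at 12.80 ± 0.35 and 12.36 ± 0.17 in DED against 12.04 ± 0.14 and 11.62 ± 0.17 in MA, and NT5E fell, at 13.13 ± 0.19 in DED against 13.83 ± 0.16 in MA. The markers' part in the results on the replication genes was not tested.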

How the data were processed

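RNA from 15 samples of the ASC52 line (5 each of DED, MA and MSC) was measured on 15 expression arrays. The deposited values are log2 intensities, for which the submitters' processing notes name RMA and the Transcriptome Analysis Console without versions. RMA sets all arrays to 1 distribution, so a shift of all genes together could not be seen. Depth is limited by the number of arrays. Of 24351 probe sets, 17709 carried 1 gene symbol, for 17687 genes; a gene with several took the one with the highest mean. Groups were compared with limma 3.58.1 (R 4.3.3; lmFit and eBayes, all 15 arrays, 1 mean per group, two-sided), with Benjamini-Hochberg adjustment over 17687 genes and a threshold of 0.05. Promoter windows came from RefSeq (GRCh38.p14).

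The 47 genes and the lists were chosen with earlier results of these data known. Picked for naming, per comparison, were the 2 genes of each role with the largest absolute difference and every gene that did not pass. Of other pathway genes, the 4 largest rises and 4 largest falls past the test were picked. MKI67, TOP2A, CDKN1A, CDKN1C and RRM2B were picked in any case. Not all of their tests are printed above. Those left out are mainly in DED against MSC, with HELLS in DED against MA. On simulated data of the same size, the test for MA against MSC recovered 54% of 1.5-fold and 92% of 2-fold changes. That for DED against MA recovered 56% and 96%, and that for DED against MSC 38% and 96%. Only 50 of 17687 genes were changed at each fold there, far fewer than passed in the real data. The recovery in the real tests can therefore differ. Alternatives were the probe set with the lowest mean, arrays set to 1 median, quantile normalization, an intensity trend with a robust fit, array weights, leaving out dim genes, fits of only the groups compared, a replicate block, leaving out each array and, added after seeing the data, leaving out DED arrays 1 and 3.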

Additional observations from a re-analysis of the deposited data

Results flagged for a closer look

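Of 141 sets of 5 arrays (47 genes in 3 groups), 8 (5.67%) held 1 array far from the other 4 by Dixon's criterion, where chance gives about 5%. In MSC, E2F1 was lowest in array 4 (4.50, the next at 5.24), E2F2 in array 2 (4.59, the next at 5.0) and UHRF1 in array 5 (9.71, the next at 10.19), and GINS4 was highest in array 3 (7.84, the next at 7.10). In MA, FEN1 was lowest in array 5 (8.12, the next at 8.92), RFC4 in array 5 (9.36, the next at 9.54) and MCM5 in array 4 (6.34, the next at 6.58), and PRIM1 was highest in array 3 (6.83, the next at 6.05). DED held none.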

How the results depend on the processing

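The median log2 difference of the 47 genes kept its sign in MA against MSC, DED against MA and DED against MSC under every alternative run. With dim genes left out, which leaves 40 of the 47 genes and 13266 in all, it was -0.86, -0.77 and -1.65 in these 3 comparisons and -0.06 for the second step minus the first. It was -1.42 in DED against MSC with array weights and -1.45 without DED arrays 1 and 3, an alternative chosen after seeing the data. Under settings other than leaving out single arrays, 32 to 37 genes fell in MA against MSC, 31 to 34 in DED against MA and 38 to 43 in DED against MSC. Leaving out each array in turn gave 35 to 37 falls, 0 to 1 rises (FEN1) and medians of -0.84 to -0.76 in MA against MSC. It gave 29 to 33 falls and medians of -0.70 to -0.56 in DED against MA, and 43 falls and medians of -1.46 to -1.33 in DED against MSC. For the second step minus the first it gave 4 to 7 negative and 5 to 8 positive calls and medians of -0.08 to 0.09, the 4 without MA array 4. Over single genes, 58 calls were lost and 16 gained without 1 array, and 0 changed direction. With the replicate block 37, 32 and 43 genes fell, the same counts as without it; same-numbered arrays did not deviate together (correlations -0.11 to 0.087, 2 of 15 arrays closest to their own number). Values near the negative controls limit what can be seen of the dim genes.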
